A study of Arabidopsis thaliana with 12 samples.

Results

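The enzymes that remove superoxide and hydrogen peroxide were followed through the transcripts of 9 Arabidopsis thaliana genes. They were chosen by locus identifier: the catalases CAT1 (AT1G20630), CAT2 (AT4G35090) and CAT3 (AT1G20620), the superoxide dismutases CSD1 (AT1G08830), CSD2 (AT2G28190) and FSD1 (AT4G25100), the copper chaperone CCS1 (AT1G12520), and the ascorbate peroxidases APX1 (AT1G07890) and APX2 (AT3G09640). All 9 were among the 32592 loci in the files, and 8 of them were tested, being among the 17207 loci whose mean reached 1 RPKM. APX2 was below it.

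Messenger RNA came from mature rosette leaves of soil-grown plants that were 3 weeks old and had not bolted, under 16 h of light and 8 h of dark. The 4 genotypes are named in the labels with no mutation or transgene: the F1 hybrid C24xCol, whose mother was C24, the F1 hybrid ColxC24, whose mother was Col, and the parental accessions C24 and Col. Each was sampled at zeitgeber times (ZT) 0, 6 and 15, in hours after lights on. There was 1 library for each of the 12 combinations, and the number of plants behind a library is not given in the labels.

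Superoxide dismutases convert superoxide, which forms mainly in chloroplasts and mitochondria, to hydrogen peroxide. Catalases destroy hydrogen peroxide in peroxisomes, much of it made by glycolate oxidase in photorespiration, and ascorbate peroxidases reduce it in several compartments at the cost of ascorbate. In leaves CAT2 is the main catalase by day and CAT3 is known to be under circadian control with a late phase. CSD1 acts in the cytosol and CSD2 in the chloroplast, and both receive copper from CCS1. The mRNAs of all 3 are known targets of the microRNA miR398, which accumulates when copper is scarce. FSD1 is an iron enzyme that replaces the copper enzymes under low copper.

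Levels are in RPKM, the number of reads scaled by transcript length and library size, and were summed over the gene models of a locus. Changes are differences of log2(RPKM + 1) with the standard error (SE) of a limma fit that adds genotype and time. A change was called at a Benjamini-Hochberg adjusted p under 0.05 over all tested loci. With 1 library per combination the error is the part of the variation that genotype and time together leave, with 6 residual degrees of freedom (4 for hybrids against the mid-parent), so all p-values measure that spread and not the spread between separate plants. Libraries held an estimated 16.65 to 26.5 M reads. RBCS1A, a Rubisco subunit gene that marks leaves, lay between 22088 and 36762 RPKM. Of the markers of flower, seed and root hair, AG lay between 0.475 and 1.32 RPKM, AP3, CRA1, AT2S1 and COBL9 were at most 0.184 RPKM, and RHD6 was listed at 0. In bulk leaf RNA, fewer cells of a type and less RNA per cell cannot be told apart.

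CAT2, the most abundant catalase transcript at dawn, fell over the day, with lower levels in 4 of 4 genotypes. CAT3 was higher later in the day, and CAT1 moved over a narrower range. At ZT0, ZT6 and ZT15, CAT2 was at 1730, 1105 and 597 RPKM in C24xCol, at 1614, 630 and 579 in ColxC24, at 1700, 713 and 421 in C24, and at 2772, 1328 and 349 in Col. All 4 libraries of ZT0 were above all 8 later ones, and Col held both the highest and the lowest value. The log2 change at ZT15 relative to ZT0 was -2.0 (SE 0.26, adjusted p = 0.00033, lower in 4 of 4 genotypes). CAT2 was already lower at ZT6 than at ZT0 (log2 change -1.08, SE 0.26, adjusted p = 0.009; 0.051 with no filter on low loci) and fell again by ZT15 (log2 change against ZT6 -0.92, SE 0.26, adjusted p = 0.028). The later step was no longer called without Col at ZT6 (-0.75, adjusted p = 0.08), C24xCol at ZT6 (-0.86, adjusted p = 0.065) or C24 at ZT15 (-0.95, adjusted p = 0.061).

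CAT3 was at 144, 792 and 538 RPKM in C24xCol, at 97.9, 766 and 724 in ColxC24, at 121, 195 and 407 in C24, and at 99.7, 691 and 625 in Col, again at ZT0, ZT6 and ZT15. Its ZT0 libraries were all below the later ones, and C24 was the lowest genotype at ZT6 and at ZT15. CAT3 rose by ZT6 (log2 change 2.22, SE 0.32, adjusted p = 0.00075) and was higher at ZT15 than at ZT0 as well (2.29, SE 0.32, adjusted p = 0.00057), in 4 of 4 genotypes each. Between ZT6 and ZT15 the fitted change was 0.07 (SE 0.32, adjusted p = 0.90), with a log2 difference of 1.06 in C24 and lower values at ZT15 in the other 3 genotypes.

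CAT1, a minor leaf catalase, was at 52.5, 53.5 and 37.2 RPKM in C24xCol, at 52.4, 49.1 and 41.3 in ColxC24, at 62.6, 34.6 and 42.8 in C24, and at 67.6, 54.5 and 33.1 in Col. Its range over the 12 libraries, 2.04-fold, was the narrowest of the 8 tested members, against 7.93-fold for CAT2 and 8.10-fold for CAT3. It was lower at ZT15 than at ZT0 (log2 change -0.59, SE 0.17, adjusted p = 0.02). That call was lost without Col at ZT0 (adjusted p = 0.07), C24 at ZT0 (0.061), Col at ZT15 (0.077) or C24xCol at ZT15 (0.061), with log2 changes of -0.52, -0.51, -0.45 and -0.57. It was also lost without all libraries of Col (-0.45, adjusted p = 0.11), ColxC24 (-0.68, adjusted p = 0.05) or C24xCol (-0.63, adjusted p = 0.056). Without C24 at ZT6, CAT1 was called lower at ZT15 than at ZT6 (-0.48, adjusted p = 0.042), a change of -0.29 (SE 0.17, adjusted p = 0.24) with it.

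**Figure D1:**
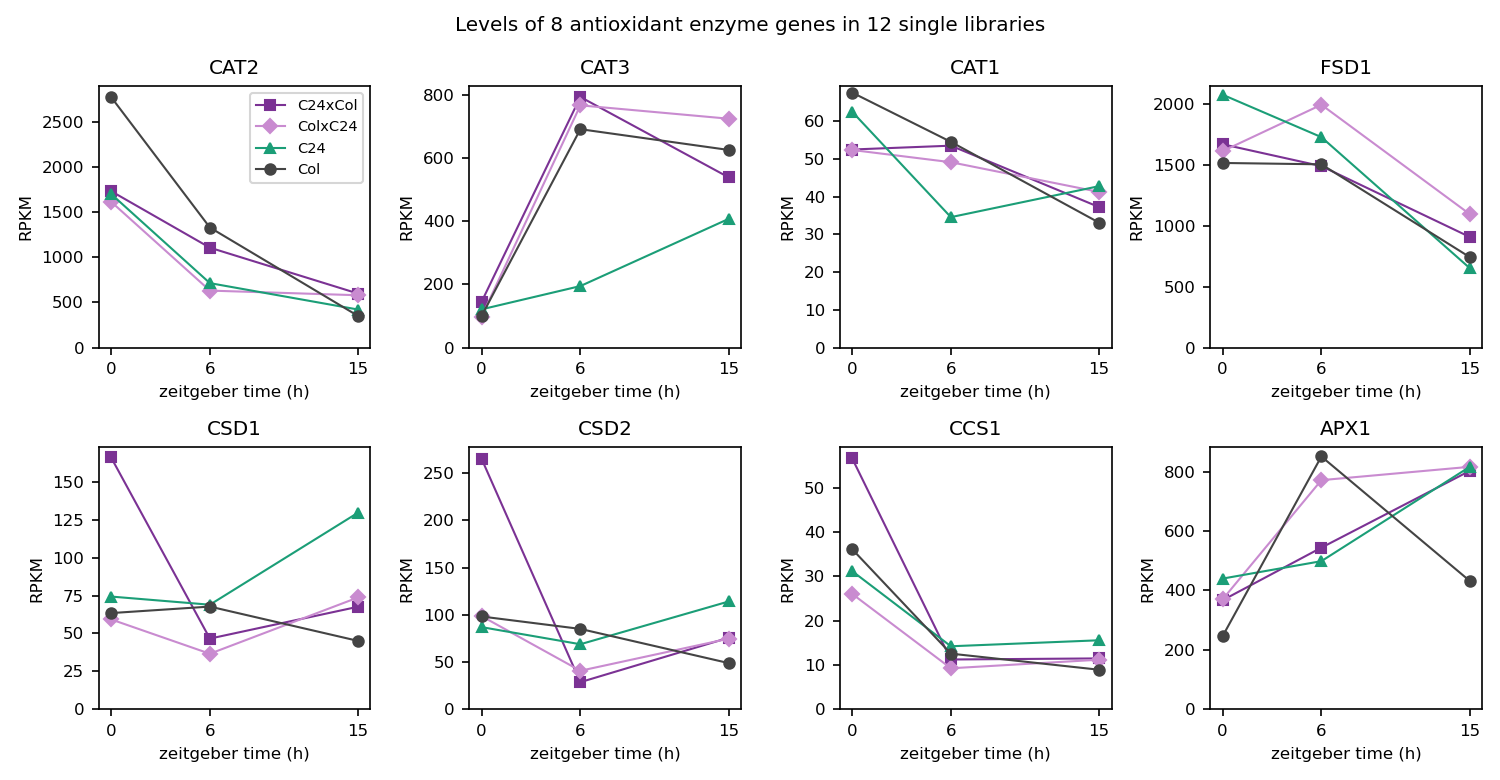
Levels in RPKM (linear axes from 0) of 8 genes at ZT0, ZT6 and ZT15 h; each point is 1 library and lines join the libraries of a genotype. CAT2 is highest at ZT0 in all genotypes, CAT3 in C24 is at 195 RPKM at ZT6 where the other genotypes are at 691 to 792, and CSD1, CSD2 and CCS1 have their highest value in C24xCol at ZT0.

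RPKM is a level per length, so the catalases can be set side by side, but CAT3 sums 4 gene models, CAT2 sums 2 and CAT1 has 1. How reads were divided between models is not given in the sources used here, and levels between genes depend on it. Summed over models, the total of the 3 catalases was 1764 to 2939 RPKM at ZT0, 942 to 2073 at ZT6 and 870 to 1344 at ZT15. At ZT0 CAT2 made up 89.8% of this sum in C24xCol, 91.5% in ColxC24, 90.3% in C24 and 94.3% in Col. At ZT6 it made up 56.6% in C24xCol, 43.6% in ColxC24, 75.7% in C24 and 64.1% in Col. At ZT15 its share was 50.9% in C24xCol, 43.1% in ColxC24, 48.3% in C24 and 34.7% in Col. By these sums CAT3 was above CAT2 in 3 libraries, ColxC24 at ZT6 and ZT15 and Col at ZT15. By the gene model of each locus with the highest mean, an alternative chosen after the data were seen, CAT3 was above CAT2 in 0 libraries, and the share of CAT2 was 91.4 to 94.6% at ZT0, 60.1 to 82.8% at ZT6 and 46.5 to 67.2% at ZT15. The share of CAT2 was thus highest at ZT0 in both ways of counting, and the order of CAT2 and CAT3 at the later times was not. CAT1 made up 2.30 to 4.92% of the summed models over the 12 libraries.

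**Figure D2:**
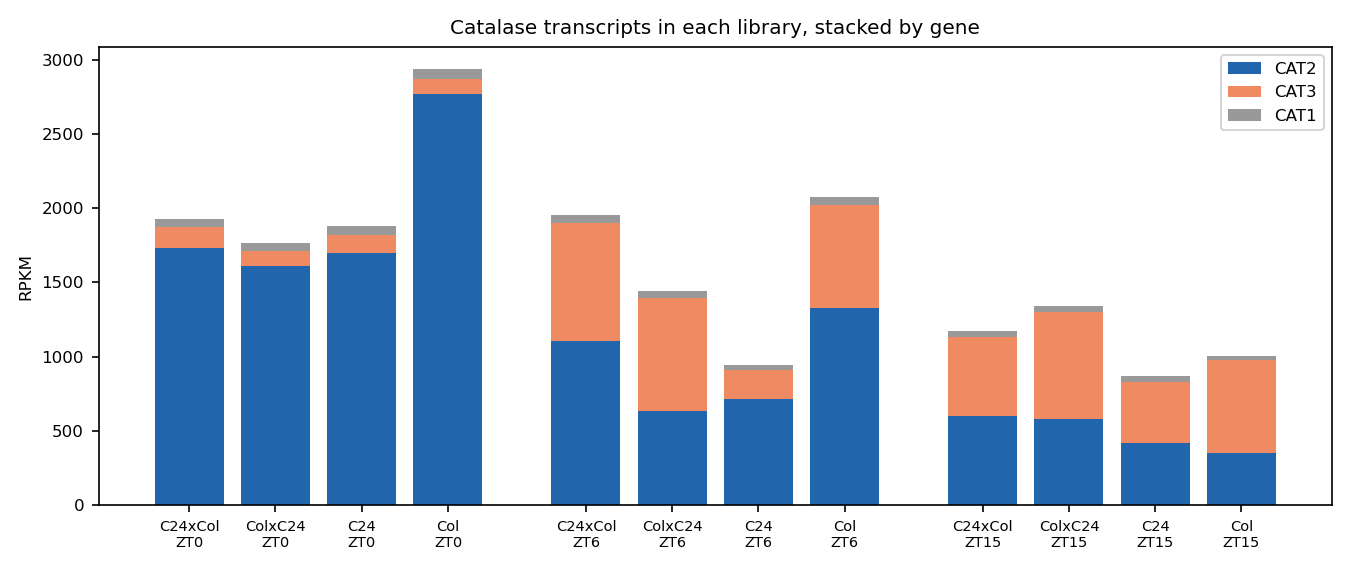
Stacked bars of the RPKM of CAT2, CAT3 and CAT1 in each of the 12 libraries, summed over gene models and grouped by time from ZT0 to ZT15. The bars at ZT0 are almost wholly CAT2, and at ZT15 CAT3 takes 45.9 to 62.0% of each bar.

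FSD1, which sums 4 gene models, was lower at ZT15 than at either earlier time. It had rank 78 of 32592 loci by mean summed RPKM, a rank that depends on how reads were divided between models. It was at 1671, 1491 and 909 RPKM in C24xCol, at 1614, 1995 and 1097 in ColxC24, at 2078, 1729 and 654 in C24, and at 1517, 1506 and 744 in Col. The ZT15 libraries did not overlap with the other 8. The log2 change was -1.0 at ZT15 relative to ZT6 (SE 0.16, adjusted p = 0.0022) and -1.03 relative to ZT0 (SE 0.16, adjusted p = 0.00092), lower in 4 of 4 genotypes each. Between ZT6 and ZT0 it was -0.03 (SE 0.16, adjusted p = 0.88). The split of FSD1 between its gene models was uneven. Model AT4G25100.4 was at 5.34 RPKM in C24xCol at ZT6, against 433 in ColxC24, 382 in C24 and 334 in Col. The sum over models is therefore compared here, and a single model only in the alternative that takes the gene model with the highest mean.

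CSD2, the chloroplast copper enzyme, was at 266, 28.6 and 75.7 RPKM in C24xCol, at 98.6, 40.6 and 74.7 in ColxC24, at 86.9, 68.8 and 114 in C24, and at 98.2, 85.0 and 48.8 in Col. It was lowest at ZT6 in C24xCol, ColxC24 and C24, and lowest at ZT15 in Col. It was called lower at ZT6 than at ZT0 (log2 change -1.24, SE 0.44, adjusted p = 0.049, lower in 4 of 4 genotypes), a call at the threshold. With median-of-ratios scaling it was -1.09 (adjusted p = 0.09). Of the 12 fits that leave out 1 library, it was kept in those without C24 at ZT0 or Col at ZT6. It was lost without Col at ZT0 (adjusted p = 0.074), ColxC24 at ZT0 (0.091), C24xCol at ZT0 (0.14), C24 at ZT6 (0.067), ColxC24 at ZT6 (0.12), C24xCol at ZT6 (0.13) and each of the libraries of ZT15 (0.05 to 0.066). The change shrank to -0.74 without C24xCol at ZT0 and to -0.78 without C24xCol at ZT6.

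CSD1, its cytosolic counterpart, was at 166, 46.6 and 67.6 RPKM in C24xCol, at 59.2, 36.5 and 73.7 in ColxC24, at 74.3, 68.9 and 130 in C24, and at 63.4, 67.7 and 45.0 in Col. No change of CSD1 between times was called (log2 change -0.63, SE 0.34, adjusted p = 0.17 for ZT6 against ZT0; 0.46, SE 0.34, adjusted p = 0.35 for ZT15 against ZT6). The libraries of the 3 times overlapped, and ZT6 was the lowest time in the hybrids and C24 but not in Col.

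CCS1, which loads copper into both enzymes, was at 56.7, 11.2 and 11.5 RPKM in C24xCol, at 26.1, 9.22 and 11.2 in ColxC24, at 31.2, 14.2 and 15.5 in C24, and at 36.2, 12.5 and 8.89 in Col. Every ZT0 library was above every later one. CCS1 fell by 1.55 on the log2 scale at ZT6 (SE 0.21, adjusted p = 0.00047) and was 1.56 below ZT0 at ZT15 (log2 change -1.56, SE 0.21, adjusted p = 0.00041). The ratio of CSD2 to CCS1 RPKM was 2.71 to 4.68 at ZT0, 2.55 to 6.79 at ZT6 and 5.49 to 7.34 at ZT15.

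APX1, the cytosolic ascorbate peroxidase, was at 367, 544 and 803 RPKM in C24xCol, at 370, 772 and 817 in ColxC24, at 440, 499 and 817 in C24, and at 245, 852 and 432 in Col. In the hybrids and C24 the level was highest at ZT15, and in Col at ZT6. It was higher at ZT15 than at ZT0 (log2 change 0.99, SE 0.25, adjusted p = 0.011) and at ZT6 than at ZT0 (0.90, SE 0.25, adjusted p = 0.019), in 4 of 4 genotypes each. The change at ZT6 was not called without Col at ZT0 (0.78, adjusted p = 0.067), ColxC24 at ZT0 (0.85, adjusted p = 0.059) or ColxC24 at ZT6 (0.87, adjusted p = 0.056). The change at ZT15 was not called with no filter on low loci (adjusted p = 0.055) or without all libraries of ColxC24 (0.94, adjusted p = 0.065).

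APX2, an isoform known for its induction by heat and strong light, was all but undetected. It was listed at 0 in the 8 libraries of ZT0 and ZT15. At ZT6 it was at 0.0416 RPKM in C24xCol, 0.0750 in ColxC24, 0.0398 in C24 and 0.112 in Col. At the estimated depth these values are worth 1.04 reads in C24xCol, 2.07 in ColxC24, 1.04 in C24 and 3.11 in Col, so no level is compared. HSFA2, a heat shock factor known to activate APX2, was at 0.0908 RPKM in C24xCol, 0.245 in ColxC24, 0.0867 in C24 and 3.55 in Col at ZT6, and at 1.17 RPKM in C24xCol, 1.88 in ColxC24, 2.56 in C24 and 2.15 in Col at ZT15, where APX2 was listed at 0. HSFA2 was singled out after its values were seen.

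Of the 8 tested members, 2 were called higher and 3 lower at ZT6 than at ZT0, where 12.5% of all tested loci were called higher and 26.8% lower. At ZT15 against ZT6, 0 were called higher (background 17.0%) and 2 lower (background 8.48%). At ZT15 against ZT0, 2 were called higher (background 20.3%) and 4 lower (background 22.3%). Changes with time were common among all loci, and with 8 members the counts are given beside these shares as a description. The libraries of ZT0 for CAT2, CAT3 and CCS1, and of ZT15 for FSD1, did not overlap with those of the other times. The share of all tested loci with such a gap was not counted, so whether the gap is particular to these genes is not known. The median change of the members was -0.46, 0.03 and -0.65 for these contrasts, against -0.14, 0.12 and -0.0025 for all tested loci. Median-of-ratios scaling moved the median of all loci to -0.01 at ZT6 against ZT0 and to -0.0013 at ZT15 against ZT6, and the share of calls that were higher to 48.7% and 46.3%, against 31.9% and 66.8% as deposited.

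**Figure D3:**
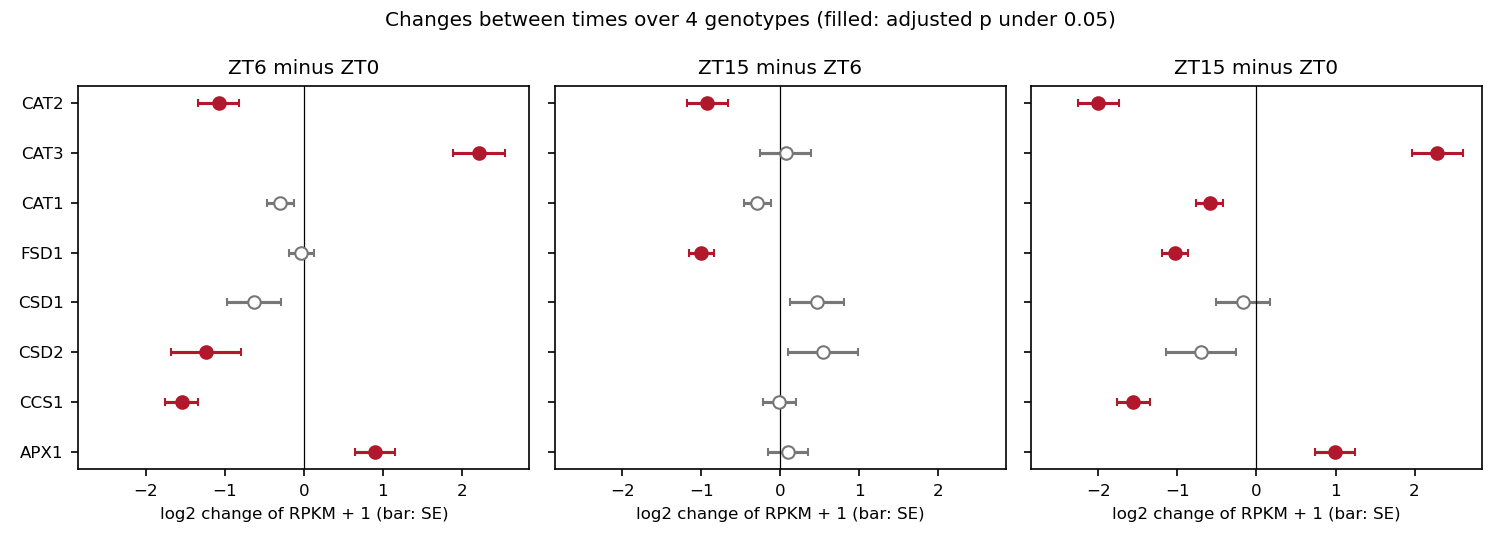
Log2 change of RPKM + 1 (horizontal axis, bars of 1 SE) of the 8 tested genes between times in the additive fit of the 12 libraries; filled points have an adjusted p under 0.05. CAT2 and CAT3 move in opposite directions at ZT6 and ZT15 relative to ZT0, and FSD1 is called lower at ZT15 against both earlier times.

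Other genes around these enzymes were taken from lists of related loci. Among the other dismutases and peroxidases, 5 of 10 tested genes were higher at ZT15 than at ZT0 and 0 lower with limma, against 20.3% and 22.3% of all tested loci. They included FSD2 and FSD3, which form the plastid nucleoid iron dismutase (log2 changes 1.43, SE 0.13, adjusted p = 5.1e-05, and 1.53, SE 0.20, adjusted p = 0.00032), MSD1, the mitochondrial manganese dismutase (0.36, SE 0.12, adjusted p = 0.031), and APX3 (0.42, SE 0.12, adjusted p = 0.019). FSD2 and FSD3 thus rose over the interval in which FSD1, also an iron dismutase of the chloroplast, fell. In photorespiration and catalase partners, 8 of 10 genes were lower and 0 higher at ZT6 than at ZT0, and 4 were higher and 0 lower at ZT15 than at ZT6. Over all tested loci 26.8% were lower at the first step and 17.0% higher at the second. GOX1, a glycolate oxidase gene, was at 2035, 1292 and 1961 RPKM in C24xCol, at 2387, 1023 and 1989 in ColxC24, at 2297, 1190 and 1700 in C24, and at 2218, 1087 and 1829 in Col. It fell by 0.96 at ZT6 (SE 0.11, adjusted p = 0.00021) and was higher again at ZT15 than at ZT6 (0.71, SE 0.11, adjusted p = 0.002), unlike CAT2, which fell at both steps. GOX1 shares much of its sequence with GOX2, so the levels of the pair may hold reads of each other.

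In the ascorbate and glutathione cycle, 5 of 17 genes were higher and 4 lower at ZT15 than at ZT0, close to the 20.3% and 22.3% of all tested loci. DHAR1, a dehydroascorbate reductase gene, rose by 2.82 at ZT6 (SE 0.34, adjusted p = 0.00028), and MDAR6, a monodehydroascorbate reductase gene, fell by 1.29 (SE 0.15, adjusted p = 2e-04). In the list for copper and miR398, 6 of 17 were lower and 0 higher at ZT6 than at ZT0, and 2 were higher and 8 lower at ZT15 than at ZT0. All tested loci were lower in 26.8% at ZT6 and in 22.3% at ZT15. COPT1 and COPT2, copper transporter genes, fell by 1.20 (SE 0.15, adjusted p = 3e-04) and 1.45 (SE 0.22, adjusted p = 0.00094) at ZT6. The loci of the miR398 precursors MIR398B and MIR398C were lower at ZT15 than at ZT0 (log2 changes -1.46, SE 0.23, adjusted p = 0.00099, and -1.58, SE 0.30, adjusted p = 0.0028). MIR398A was listed at 0, the precursors have similar sequences, and the mature microRNA was not measured. Thiol peroxidases had 4 of 13 genes higher and 2 lower at ZT15 than at ZT0, and the list for hydrogen peroxide and heat had 2 of 7 higher and 0 lower, to be read against the same shares of 20.3% and 22.3%.

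The parental accessions were set against each other, C24 over Col. With limma 0 of the 8 tested members were called, where 13.6% of all tested loci were (32.8% of these higher, or 50.4% with median-of-ratios scaling), and 0 had an unadjusted p under 0.05. The widest fitted changes were those of CAT3 (log2 change -0.72, SE 0.37, adjusted p = 0.23) and CSD1 (0.59, SE 0.39, adjusted p = 0.35). The values at single times differed more than these. CAT3 at ZT6 was at 195 RPKM in C24 and 691 in Col, a log2 difference of -1.82, against 0.27 at ZT0 and -0.62 at ZT15. At ZT6 C24 was at least 2-fold below each other genotype in CAT3 alone among the 8 members, a rule set after the values were seen, and 1.34% of all tested loci met it. CSD1 at ZT15 was at 130 RPKM in C24 and 45.0 in Col, a log2 difference of 1.51. CSD2 was at 114 RPKM in C24 and 48.8 in Col, a log2 difference of 1.21.

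The APX1 difference did not keep its sign over the times. The level was 440 RPKM in C24 and 245 in Col at ZT0, 499 in C24 and 852 in Col at ZT6, and 817 in C24 and 432 in Col at ZT15. The fitted change was 0.33 (SE 0.29, adjusted p = 0.48). Without the Col library of ZT6 it was 0.76 and called (adjusted p = 0.045), and without all libraries of ZT6 it was 0.88 (adjusted p = 0.0095). CAT2 was called lower in C24 without the Col library of ZT15 (-0.89, adjusted p = 0.035), against -0.45 (SE 0.30, adjusted p = 0.34) with it.

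Around the members, 4 of 17 genes of the ascorbate and glutathione cycle were lower in C24 and 0 higher. Of all 17207 tested loci, 1570 were lower and 767 higher as deposited, and 1056 lower and 1075 higher with median-of-ratios scaling. DHAR1 in C24 was at 43.0, 103 and 99.2 RPKM over the 3 times, against 57.2, 690 and 541 RPKM in Col, with a fitted log2 change of -1.86 (SE 0.40, adjusted p = 0.015). DHAR2 (-0.81, SE 0.19, adjusted p = 0.026) and GSH2, a glutathione synthetase gene (-0.67, SE 0.12, adjusted p = 0.0074), were lower as well. Of 17 copper and miR398 genes, 3 were higher in C24 and 1 lower, to be read against the same numbers for all tested loci. COPT2, known to respond to low copper, in C24 was at 126, 39.9 and 45.6 RPKM, against 31.6, 8.93 and 4.82 RPKM in Col, with a fitted log2 change of 2.33 (SE 0.26, adjusted p = 0.00033). FRO4, a metal reductase gene, was higher by 1.14 (SE 0.16, adjusted p = 0.0014) and LAC13 by 0.86 (SE 0.24, adjusted p = 0.047). YSL2 was lower (log2 change -1.65, SE 0.37, adjusted p = 0.019). MIR398B (0.09, SE 0.27, adjusted p = 0.84) and FSD1 (0.16, SE 0.18, adjusted p = 0.61), which are also known to respond to low copper, were not called. The loss of C24 reads with differences from the reference in mapping was not tested.

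The hybrids together were then compared with the mid-parent, the mean RPKM of both parents at each time. With limma 0 of the 8 members were called, against 0.0465% of all tested loci, and 0 had an unadjusted p under 0.05. CAT3 had the widest departure, 0.40 (SE 0.19, adjusted p = 0.44), above the mid-parent at 3 of 3 times. At ZT6 its levels were 792 RPKM in C24xCol and 766 in ColxC24, against 195 in C24 and 691 in Col. The other departures lay between -0.16 for CSD1 (SE 0.30, adjusted p = 0.86) and 0.16 for FSD1 (SE 0.14, adjusted p = 0.69).

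At single times both hybrids were asked to lie at least 1.5-fold above or below both parents on RPKM + 1. At ZT0 and ZT15, 0 of 8 members did, where 0.384% and 0.337% of all tested loci did. At ZT6 CSD2 alone of the 8 members did, with 28.6 RPKM in C24xCol and 40.6 in ColxC24, against 68.8 in C24 and 85.0 in Col, and 0.848% of all tested loci met the rule. CSD1 at ZT6 was also below both parents, at 46.6 RPKM in C24xCol and 36.5 in ColxC24, against 68.9 in C24 and 67.7 in Col, short of the 1.5-fold gap in C24xCol. With a gap of 2-fold CSD2 no longer met the rule.

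**Figure D4:**
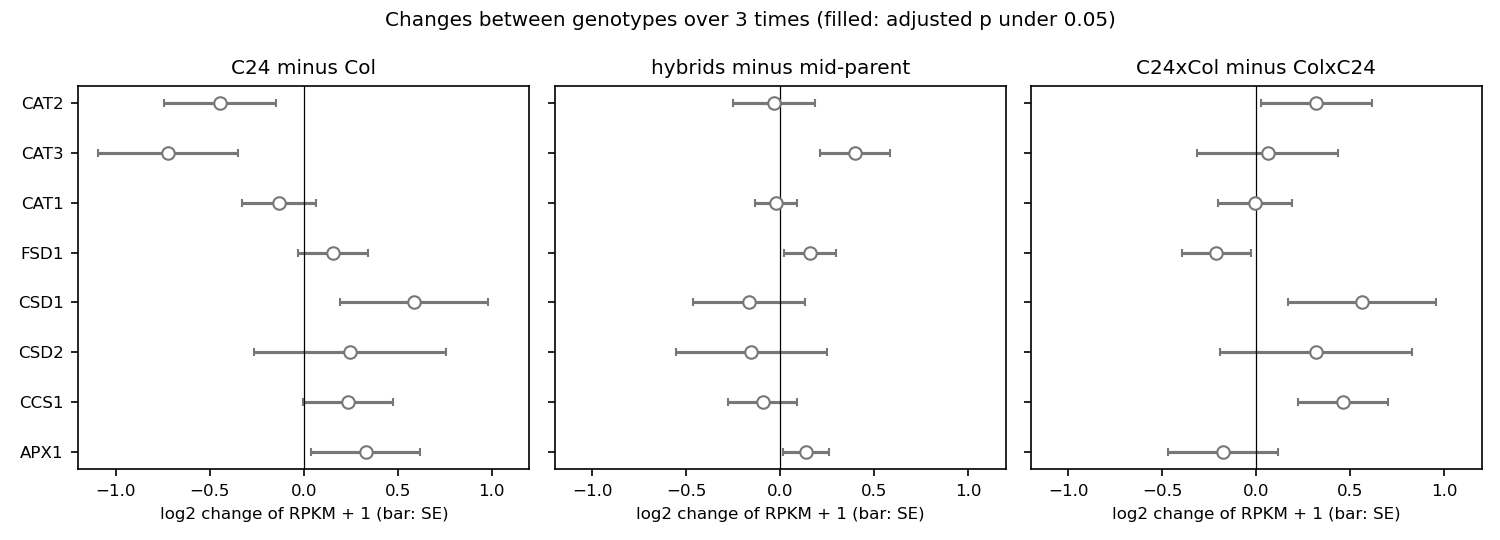
Log2 change of RPKM + 1 (horizontal axis, bars of 1 SE) of the 8 tested genes for C24 against Col, the hybrids against the mid-parent and C24xCol against ColxC24. All points are open, as none has an adjusted p under 0.05; the widest is CAT3 in C24 against Col, at -0.72.

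C24xCol was set against ColxC24, a comparison of the maternal parent. With limma 0 of the 8 members were called, as were 0% of all tested loci; 0 members and 771 of 17207 loci had an unadjusted p under 0.05. The fitted changes for C24xCol against ColxC24 included 0.56 for CSD1 (SE 0.39, adjusted p = 0.74), 0.46 for CCS1 (SE 0.24, adjusted p = 0.74) and 0.31 for CSD2 (SE 0.51, adjusted p = 0.86).

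The 3 genes of the copper dismutase pathway had their highest values in 1 library, C24xCol at ZT0. CSD2 was at 266 RPKM there, against 98.6 in ColxC24, 86.9 in C24 and 98.2 in Col at the same time. CSD1 was at 166 RPKM, against 59.2 in ColxC24, 74.3 in C24 and 63.4 in Col. CCS1 was at 56.7 RPKM, against 26.1 in ColxC24, 31.2 in C24 and 36.2 in Col. All 3 were above every other genotype there, while FSD1, at 1671 RPKM, was between Col at 1517 and C24 at 2078. By a rule chosen after these values were seen, 2 of the 8 members, CSD1 and CSD2, were at least 2-fold above each other genotype in C24xCol at ZT0, as were 13 of all 17207 tested loci (0.0756%). Of these 13 loci, 7 were chloroplast or ribosomal RNA loci. The ribosomal RNA loci AT2G01020 and AT3G41979 had the same RPKM as each other in every library of ZT0 (5833 in C24xCol). The same signal may thus be counted at both, here and in the ribosomal shares below. In this library 3 ribosomal RNA loci held 1.76% of all RPKM, against 0.219% in ColxC24, 0.562% in C24 and 0.449% in Col at ZT0, and chloroplast loci held 0.939%, against 0.303% in ColxC24, 0.644% in C24 and 0.453% in Col. In ColxC24 at ZT15 the ribosomal share was 1.42% and the chloroplast share 1.25%, with CSD2 at 74.7 and CSD1 at 73.7 RPKM. The part of these RNA classes in the values of CSD1 and CSD2 was not tested. The precursor MIR398B was at 7.95 RPKM in C24xCol at ZT0, against 5.40 in ColxC24, 5.61 in C24 and 4.37 in Col, and MIR398C at 8.39 RPKM, between 5.94 in C24 and 12.7 in Col. COX5B, which encodes a cytochrome oxidase subunit and is a further known miR398 target, was at 68.0 RPKM, against 62.4 in ColxC24, 60.7 in C24 and 54.5 in Col. At ZT6, where CSD2 was at 28.6 RPKM in C24xCol, MIR398B was at 12.1 RPKM in C24xCol, 2.31 in ColxC24, 3.33 in C24 and 3.94 in Col. MIR398C at ZT6 was at 5.78 RPKM in C24xCol, 5.61 in ColxC24, 4.13 in C24 and 2.32 in Col. The fitted change of MIR398B for C24xCol against ColxC24 was 0.97 (SE 0.27, adjusted p = 0.74). A tie between the precursors and CSD2 was not tested.

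The same 3 genes departed in the same direction from the additive pattern of genotype and time in 11 of 12 libraries. The residual of CSD2 was 1.01 in C24xCol at ZT0, -0.92 in C24xCol at ZT6 and 0.79 in Col at ZT6, in units of log2(RPKM + 1). In the same libraries the residual of CSD1 was 0.77, -0.42 and 0.59, and that of CCS1 was 0.45, -0.25 and 0.18. The sign of the residual was the same for CSD1 and CSD2 in 12 of 12 libraries, and for CCS1 and CSD2 in 11 of 12, Col at ZT0 being the exception. For FSD1 it matched CSD2 in 7 of 12 libraries, for APX1 in 8, for CAT3 in 7, and for CAT1 and CAT2 in 6. Of all other tested loci, 0.639% matched CSD2 in at least 11 libraries. In the list for copper and miR398, COPT1 matched CSD2 in 9 of 12 libraries, COX5B in 8, MIR398B in 7, SPL7, the copper-sensing factor, in 6 and MIR398C in 5. The 12 residuals carry 6 degrees of freedom and share their libraries, so the counts are a description. In an additive fit, a high value in 1 library also lowers the residuals of the other libraries of its genotype and time. The signs shared by CSD2, CSD1 and CCS1 thus partly restate their high values in C24xCol at ZT0 and are no separate observation.

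**Figure D5:**
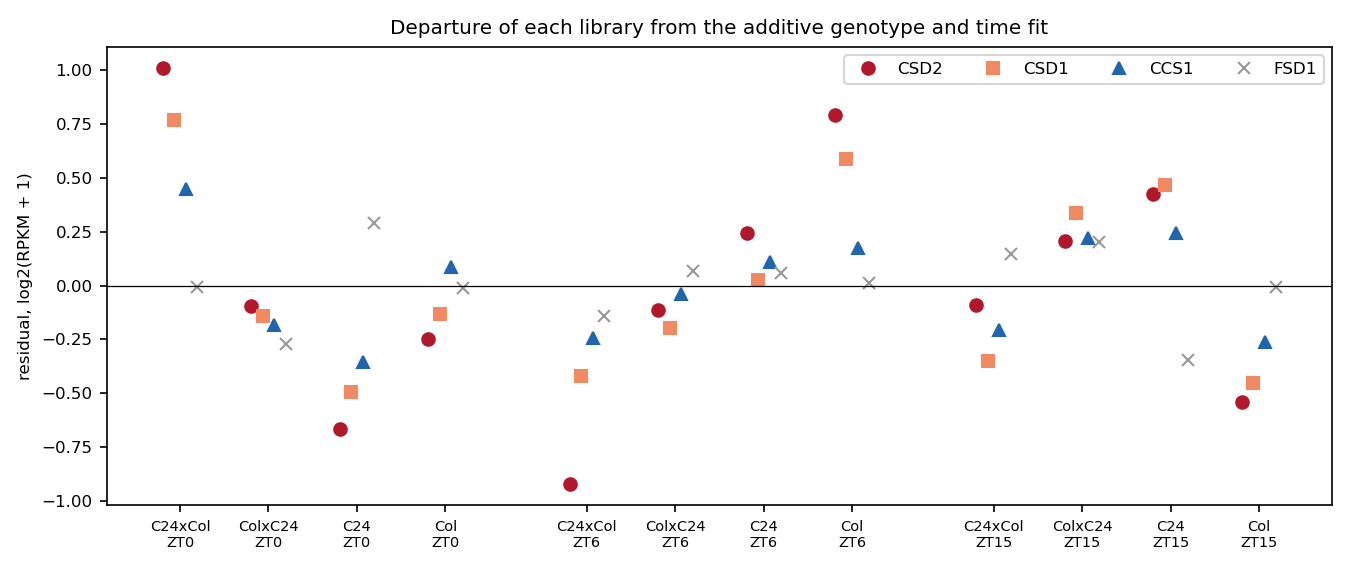
Residual of log2(RPKM + 1) from the additive fit of genotype and time, for CSD2, CSD1, CCS1 and FSD1 in each of the 12 libraries, grouped by time. CSD2, CSD1 and CCS1 lie on the same side of 0 except CCS1 in Col at ZT0, with the widest departure of CSD2, 1.01, in C24xCol at ZT0.

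The loci most like each member were sought by Pearson r of log2(RPKM + 1) over the 12 libraries, among tested loci with a gene symbol other than the members. For CAT2 these were RAB1C (r = 0.97), of the small GTPase family, and TAT7 (r = 0.97), a tyrosine aminotransferase gene. For CAT3 they were CDS1 (r = 0.97) and CORI3 (r = 0.96), and for CAT1 AAP4 and INT1 (r = 0.91 each), genes of amino acid and inositol transport. FSD1 was most like CH1, the chlorophyllide a oxygenase gene of chlorophyll b synthesis, and BBX27 (r = 0.94 each). For CSD2 they were TSC10A (r = 0.93) and LTP5 (r = 0.90), for CSD1 ARO2 (r = 0.83) and RALF23 (r = 0.82), for CCS1 EXO70H6 and ABCB21 (r = 0.97 each), and for APX1 GATL3 (r = 0.92) and FLR1 (r = 0.87). ABCB21, an ABC transporter gene, was also among the 13 loci at least 2-fold above each other genotype in C24xCol at ZT0, with 30.4 RPKM there, 12.9 in ColxC24, 10.8 in C24 and 14.3 in Col. Among the members themselves r was 0.88 for CSD1 with CSD2, 0.87 for CAT1 with CAT2, and 0.79 for both CAT3 with APX1 and CSD2 with CCS1. The 12 libraries share genotypes and times, and these values describe likeness of pattern in them.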

How the data were processed

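Messenger RNA of rosette leaves was sequenced with 84 bp reads in 12 libraries, 1 for each of 4 genotypes at 3 times, per the labels' protocols. The authors deposited RPKM for each of 38710 gene models, per the file headers. The genome build was TAIR9, per the submitters' processing notes; not given in the sources used here are the aligner, the counting tool, the use of strand and how multiply matching reads were handled. Gene names came from TAIR10.1, so no positions or sequences are given. Whole numbers of reads, within 1%, were found for 35.0 to 40.2% of values under 3.5 reads in loci with 1 model. These steps, with TAIR10.1 transcript lengths, gave the estimated depth, at which 1 read on 1 kb is worth 0.0377 to 0.0601 RPKM. The share of whole reads was too low for a count test.

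RPKM was summed over the models of each locus; how the authors divided reads between models is not known here, and this bears on levels set between genes. Loci whose mean reached 1 RPKM entered limma 3.58.1 (R 4.3.3) as log2(RPKM + 1), with two-sided moderated tests and a trended prior variance. An additive fit of the 12 libraries gave the genotype and time changes. Hybrids were compared with the linear mid-parent over 9 columns. In that comparison, leaving out 1 parental library removed the mid-parent of its time, and with it the other parent. Alternatives were scaling by median-of-ratios or quantiles, pseudocount 0.1, no filter or a mean of at least 5 RPKM, the highest gene model, a log2 mid-parent, and leaving out single libraries, times or genotypes. The fits were also run on simulated data. Their noise was drawn independently with the residual spread of these data, so the simulation could not check what the lack of replicates does.

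The members, lists and tests were chosen with earlier results of these data known. All members were described; from the lists, up to 4 called genes per comparison with the smallest adjusted p could be named, and 2 loci per member for likeness of pattern. A planned motif search was not run. Genes outside that rule are COX5B, HSFA2, MIR398A, MIR398C, SPL7 and uncalled values of listed genes, given for their known tie to a member.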

Additional observations from a re-analysis of the deposited data

How the results depend on the processing

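No paired analysis was possible beyond the additive fit, which already sets times within genotypes and genotypes within times, because the labels give no replicate numbers and each combination has 1 library. With 1 library per combination, plant-to-plant spread was not measured, and depth limits only APX2 among the members. CAT3 and CCS1 at ZT6 and ZT15 against ZT0, CAT2 and FSD1 at ZT15 against ZT0, and FSD1 at ZT15 against ZT6 kept direction and call in 22 of 22 alternatives; the CSD2 call at ZT6 was lost in 16 of 22. The cause of the changes below was not tested.

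Members called at ZT6 against ZT0 numbered 5, against 3 with no filter (CAT3, CCS1 and APX2, which rests on 1.04 to 3.11 estimated reads per library, so that CAT2, CSD2 and APX1 lost their calls), with the highest gene model or without all of ColxC24, and 3 to 5 without single libraries. With no filter, CAT2 at ZT15 against ZT6 (adjusted p = 0.11) and CAT1 (0.062) and APX1 (0.055) at ZT15 against ZT0 were not called either, and APX2 was (0.023 at ZT15 against ZT6). Members called at ZT15 against ZT6 numbered 2, against 1 without all of Col, C24 or C24xCol, and 1 to 3 without single libraries. For C24 against Col they numbered 0, against 1 without all of ZT6, and 0 to 1 without single libraries. CSD2 at ZT6 met the outside-parents rule, and 0 members did at a gap of 2-fold. CAT3 was above CAT2 in 3 libraries, and in 0 with the highest gene model.

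Loci called for C24 against Col numbered 2337, against 1289 with a mean of at least 5 RPKM, 766 without ZT0 and 507 without ZT15 (1082 to 2673 without single libraries). For hybrids against the mid-parent they numbered 8, against 4 with either scaling or the 5 RPKM mean, 5 with pseudocount 0.1, 90 with a log2 mid-parent, 1 without ZT0 or without ZT15, and 1 to 15 without single libraries. For C24xCol against ColxC24 they numbered 0, against 2 with no filter, 1 without ZT0, and 0 to 1 without single libraries. For ZT6 against ZT0 they numbered 6768, against 4433 without ColxC24. For ZT15 against ZT6 they numbered 4389, against 2036 without ColxC24, 2825 without C24xCol and 2860 to 4718 without single libraries. For ZT15 against ZT0 they numbered 7332, against 4859 without C24xCol. Loci outside both parents numbered 66, 146 and 58 at ZT0, ZT6 and ZT15, against 14, 25 and 12 at a gap of 2-fold and 176, 229 and 112 with pseudocount 0.1.

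Uncalled log2 changes turned sign as follows. For C24 against Col, FSD1 was -0.025 with quantile normalization, CAT1 0.13 without ZT6, and CSD2 -0.24 and CCS1 -0.020 without ZT15; without single libraries CAT1 spanned -0.32 to 0.12, CSD2 -0.12 to 0.77 and FSD1 -0.037 to 0.39. For hybrids against the mid-parent, CAT1 was 0.058 and CAT2 0.050 with median-of-ratios scaling, CAT1 0.047 with quantile normalization and CAT2 0.0058 with a log2 mid-parent. Without ZT0, CAT1 was 0.12 and CAT2 0.16; without ZT6, CAT2 was 0.095, CSD1 0.11, CSD2 0.34 and CCS1 0.042; without ZT15, FSD1 was -0.019. Without single libraries CAT1 spanned -0.13 to 0.12, CAT2 -0.35 to 0.16, CSD1 -0.51 to 0.11, CSD2 -0.63 to 0.34, CCS1 -0.25 to 0.042 and FSD1 -0.019 to 0.30. A fit without 1 parental library also lacked the mid-parent of that time and gave the same change as leaving out that time.

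For C24xCol against ColxC24, CAT3 was -0.030 with median-of-ratios scaling, -0.040 with the highest gene model and -0.19 without ZT0, CSD2 was -0.24 without ZT0 and CAT1 0.062 without ZT15; without single libraries CAT1 spanned -0.13 to 0.090, CAT3 -0.24 to 0.29 and CSD2 -0.36 to 0.93. For ZT6 against ZT0, FSD1 was 0.12 with median-of-ratios scaling, 0.044 without C24, 0.010 without C24xCol and -0.17 to 0.11 without single libraries. For ZT15 against ZT6, CAT3 was -0.077 and APX1 -0.053 with median-of-ratios scaling, -0.078 and -0.039 with quantile normalization, and -0.26 and -0.11 without C24, while CCS1 was 0.13 without Col and APX1 -0.062 without C24xCol; without single libraries CAT3 spanned -0.35 to 0.24, CCS1 -0.13 to 0.12 and APX1 -0.13 to 0.42. For ZT15 against ZT0, CSD1 was 0.21 without C24xCol and -0.41 to 0.22 without single libraries.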
